A study of Arabidopsis thaliana with 9 samples.

Results

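RNA polymerase V (Pol V) is a plant-specific polymerase that makes non-coding RNA in RNA-directed DNA methylation, the pathway in which small interfering RNAs loaded into ARGONAUTE 4 (AGO4) guide DNA methylation to transposons and other repeats. NRPE1 is its largest subunit, and RNA that Pol V makes is held to be lost when NRPE1 is missing. RNA that still comes down with the antibody in an nrpe1 mutant is therefore of interest in any list of Pol V transcripts. In Arabidopsis, messenger RNAs are made by RNA polymerase II, which can run past the site where the message is cleaved and polyadenylated before it is released.

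Of 4502 Pol V transcripts listed by the study, 244 had more than 3 reads in at least one nrpe1 library, 5.42% of the list, and they are described here beside the other 4258. They were chosen by the read counts in nrpe1 themselves, so those counts and the ratio of Col-0 to nrpe1 are given as a description only. The 42 transcripts whose higher nrpe1 count was exactly 4 reads, just inside the limit, had a median of 99.5 reads over both Col-0 libraries. Their median length was 763.5 bp, and that of the 52 with exactly 3 reads, just outside, was 840.5 bp. Of those just inside 28.6% began at a gene end as defined further on, and of those just outside 19.2%.

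The reads come from RNA immunoprecipitation with an antibody against NRPE1 (Pol V RIP) in 2 biological repeats of Col-0 wild-type and of nrpe1 (allele nrpd1b-11), both in the Col-0 background. AGO4 was immunoprecipitated once from Col-0 and once from ago4 (ago4-1, introgressed into Col-0). All plants were soil-grown seedlings about 2.5 weeks old, whose aerial parts were fixed with formaldehyde. AGO4 RIP from nrpe1 and Pol V RIP from ago4 and idn2 were not analysed here. Listed transcripts held 251106 and 189141 reads in the Col-0 repeats and 3049 and 1980 in the nrpe1 repeats. The members carried 12.6% and 11.7% of the Col-0 reads, and 95.9% and 66.3% of the nrpe1 reads. Whole-library depth is unknown here, so libraries were compared on raw reads as if equally deep, and no interval below includes error between libraries. Transcripts had been called from reads outside TAIR10 genes, and those containing a TAIR10 gene were removed. The counts used here are total reads, and the study does not say that genic reads were left out of them. 0 listed transcripts overlapped the NRPE1 gene, so its own RNA could not be checked in the mutant.

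Many members began inside a protein-coding gene on their own strand or at most 100 bp past its 3′ end. To show where those past the end begin, 6 stretches of 120 bases are given from the TAIR10.1 genome. They run 5′ to 3′ on the strand of the transcript. Each starts at the first base past the annotated gene end. Lower case marks the gap between that end and the listed transcript, and capitals mark the transcript. They are the members with most nrpe1 reads that began 1 to 100 bp past a gene and whose stretch held no other annotated gene. PVTrans980 was named by a rule on its values, and the other 5 were chosen after their values were seen.
PVTrans234, plus strand, chr1:10723248-10723367, past PSAK: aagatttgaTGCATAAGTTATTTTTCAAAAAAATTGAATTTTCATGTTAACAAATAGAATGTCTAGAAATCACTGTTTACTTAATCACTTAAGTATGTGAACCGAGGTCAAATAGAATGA
PVTrans1576, minus strand, chr2:6888420-6888539, past OTP51: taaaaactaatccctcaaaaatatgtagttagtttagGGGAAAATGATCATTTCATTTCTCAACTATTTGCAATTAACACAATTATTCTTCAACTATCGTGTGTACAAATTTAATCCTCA
PVTrans980, minus strand, chr1:25198062-25198181, past AT1G67310: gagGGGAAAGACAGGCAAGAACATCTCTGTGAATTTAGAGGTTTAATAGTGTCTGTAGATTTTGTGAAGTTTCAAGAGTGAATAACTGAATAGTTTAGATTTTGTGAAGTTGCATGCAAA
PVTrans530, plus strand, chr1:16470501-16470620, past FBP: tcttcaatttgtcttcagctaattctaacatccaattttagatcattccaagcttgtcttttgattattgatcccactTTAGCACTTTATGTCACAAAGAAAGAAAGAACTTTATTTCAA
PVTrans2980, plus strand, chr4:1943025-1943144, past MEE51: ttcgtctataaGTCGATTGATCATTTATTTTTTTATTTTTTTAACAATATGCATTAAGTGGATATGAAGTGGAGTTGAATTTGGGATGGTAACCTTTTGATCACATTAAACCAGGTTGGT
PVTrans2642, minus strand, chr3:16596238-16596357, past AT3G45260: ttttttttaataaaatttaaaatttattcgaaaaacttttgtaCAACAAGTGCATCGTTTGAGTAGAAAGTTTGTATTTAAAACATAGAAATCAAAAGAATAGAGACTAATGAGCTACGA

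The stretches were 31.7% to 42.5% T. Over the first 100 bases of the transcript itself, the median was 33% T in the 43 members that began 1 to 100 bp past a gene and 31% in the 131 others that did so. It was 32% over the whole list, with quartiles of 27% and 37%, so the first bases of these members had about the composition of the list.

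Most nrpe1 counts were 0. In repeat 1, 4238 transcripts had no read in nrpe1, 84 had 1 to 3 and 180 had more than 3. In repeat 2, 3834 had none, 539 had 1 to 3 and 129 had more than 3. The counts thus lay differently in the 2 mutant libraries, with fewer transcripts at 1 to 3 reads in repeat 1 and more above 3. All Pol V RIP counts here are total reads without removal of duplicates, so several reads can come from the same fragment. Of the members, 65 passed the limit in both repeats, 115 in repeat 1 only and 64 in repeat 2 only. The median member had 76 and 52.5 reads in Col-0 repeats 1 and 2, and 7 and 4 reads in nrpe1.

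**Figure D1:**
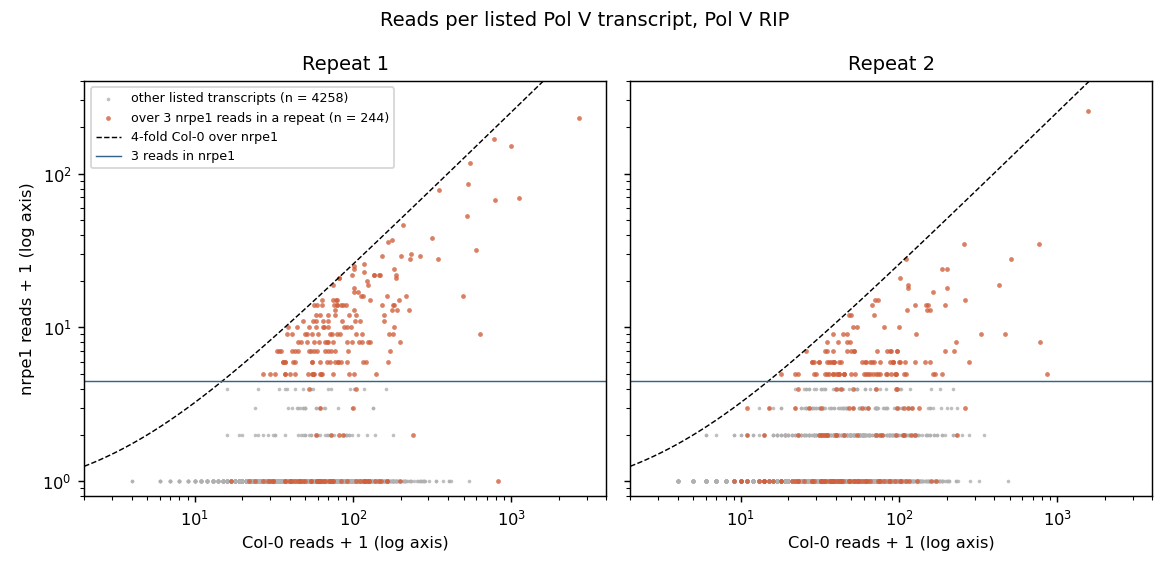
Reads per listed transcript in Col-0 (x axis, reads + 1, log scale) and nrpe1 (y axis, reads + 1, log scale) in each Pol V RIP repeat, with the 244 members in orange and the other 4258 in grey. Every point lies below the dashed 4-fold line, which the study's filter drew, and orange points under the horizontal line passed the limit in the other repeat.

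Each repeat can be read on transcripts chosen in the other. Of the 180 transcripts with more than 3 nrpe1 reads in repeat 1, 109 (60.6%) had a read in nrpe1 repeat 2 and 65 (36.1%) had more than 3. Of the remaining 4322, 559 (12.9%) had a read and 64 (1.48%) had more than 3. Chosen on repeat 2 instead, 74 of 129 (57.4%) had a read in nrpe1 repeat 1, against 190 of 4373 (4.34%). Still, 71 of the 180 had no read in the other repeat. The share with a read also moved with Col-0 reads, by the classes used further on. Away from gene ends, 65 of 1470 transcripts (4.42%) in the class with fewest Col-0 reads had a read in nrpe1 repeat 2. In the class with most it was 313 of 1344 (23.3%). That class held 175 of the 244 members, and the repeats were not compared within it.

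The list admitted a transcript only above a 4-fold difference in each repeat, so a member with 4 reads in nrpe1 had to have more than 16 in Col-0 of that repeat. The fewest found were 17. The members accordingly had more Col-0 reads than the others, with medians of 128 and 72 over both repeats. Per kilobase the medians were closer, 125 and 113 Col-0 reads. Where a repeat passed the limit, Col-0 was never less than 4.05-fold above nrpe1. With both repeats summed and the nrpe1 sum taken as at least 6 reads, the median ratio of the members was 12.2, where the 65 with a sum under 6 have a lower bound, against at least 12.0 for the others, where every value is one. Col-0 was at least 8-fold over nrpe1 in each repeat for 115 members (47.1%) and for 56.4% of the list. Since the rule used this contrast, nothing is read from these shares.

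PVTrans2554, on the minus strand of chromosome 3 from 15608109 to 15614774, had the most nrpe1 reads. It had 1000 and 1562 reads in wild-type, with 150 and 256 left in nrpe1. Both nrpe1 counts were thus below both Col-0 counts, with a ratio of 6.31 over both repeats. The list's 4-fold filter in each repeat favoured such an order, so nothing is read from it. It spans 6665 bp, overlaps the long non-coding RNA gene AT3G06655 and has a base composition of only 26.4% G and C, against a median of 36.5% in the members.

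PVTrans2351, on the plus strand of chromosome 3 from 11096946 to 11105641, was the longest transcript of the whole list at 8695 bp. It had 779 and 506 reads in wild-type, with 168 and 27 left in nrpe1. PVTrans2250, on the plus strand of chromosome 3 from 9783491 to 9788493, had 351 and 194 reads in wild-type, with 77 and 6 left in nrpe1. In both, the mutant counts differed several times more between repeats than the Col-0 counts did. The groups did not overlap, which the 4-fold filter favoured. PVTrans3114, on the minus strand of chromosome 4 from 5056754 to 5063387, had 788 and 259 reads in wild-type, with 66 and 14 left in nrpe1, and overlaps the pseudogenes AT4G08111 and AT4G08112. PVTrans167, on the minus strand of chromosome 1 from 8928461 to 8933450, lies over the pseudogene AT1G25430. It had 1115 and 775 reads in wild-type, with 68 and 7 left in nrpe1, so its ratio was 25.2 in spite of its place among the 10 members with most nrpe1 reads.

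**Figure D2:**
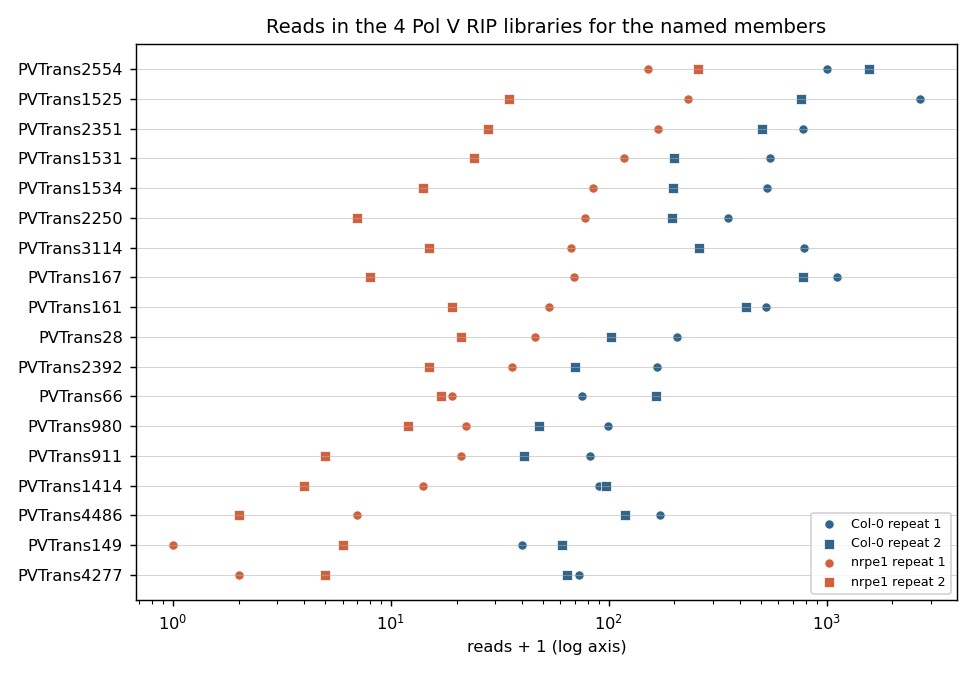
Reads + 1 (log scale) in the 4 Pol V RIP libraries for the 18 members named by rule, ordered by nrpe1 reads, with Col-0 in blue, nrpe1 in orange, circles for repeat 1 and squares for repeat 2. For each member both orange points lie left of both blue points, an order that the study's 4-fold filter in each repeat favoured. The share of the whole list with this order was not counted, and the list's median nrpe1 count was 0 in each repeat.

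Per kilobase, nrpe1 counts ran highest in PVTrans1525, at 83.2 reads per kilobase over both repeats, followed by PVTrans980 at 78.4. PVTrans980, on the minus strand of chromosome 1 from 25197770 to 25198178, is 408 bp long and had 98 and 47 reads in wild-type, with 21 and 11 left in nrpe1. It begins 3 bp past AT1G67310, which encodes a calmodulin-binding transcription activator, and its ratio of 4.53 was the lowest of the members above the limit in both repeats. PVTrans66, on the plus strand of chromosome 1 from 5448155 to 5448722, had 74 and 164 reads in wild-type, with 18 and 16 left in nrpe1, and lies wholly inside AT1G15830. The shortest member was PVTrans149, on the minus strand of chromosome 1 from 8620421 to 8620625, which had 39 and 60 reads in wild-type, with 0 and 5 left in nrpe1. It lies wholly inside AT1G24300.

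The members were next compared by where they began. Of the 244, 108 (44.3%) had their 5′ end inside a protein-coding gene of TAIR10.1 on their own strand or at most 100 bp past its 3′ end, against 237 of the other 4258 (5.57%) and 7.66% of the list. The 100 bp limit was set after the values were seen. Read from the position, 31.3% of the 345 transcripts that began there were members, against 136 of 4157 elsewhere (3.27%). These 345 transcripts held 9.11% of the Col-0 reads on the list and 34.9% of the nrpe1 reads. The position is called a gene end here, though a 5′ end inside a gene counted at any distance from that end. Of the 65 members that began inside a gene, 55 did so at most 400 bp before its end.

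The share of members changed with distance. Of 57 transcripts that began more than 200 bp before a gene's end, 29 (50.9%) were members, with a Wilson 95% interval of 38.3% to 63.4%. It was 36 of 114 (31.6%) for those that began in the last 200 bp, 31 of 117 (26.5%) at 1 to 50 bp past the end and 12 of 57 (21.1%) at 51 to 100 bp. From there to 200 bp it was 7 of 102 (6.86%), and beyond 5 kb it was 64 of 2395 (2.67%). These intervals cover counting error over transcripts, which share their libraries and are not replicates.

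Other sides of a gene gave other values. Of 158 transcripts that ended 1 to 100 bp before the start of a downstream gene on their strand, 6 (3.80%) were members. Where an opposite-strand gene started inside or within 100 bp of the 5′ end, and that 5′ end was not at a same-strand gene end, 23 of 572 (4.02%) were members. Transcripts whose 3′ end lay more than 200 bp inside a same-strand gene were the exception, with 14 of 47 (29.8%). That gene can hold the whole transcript, as with PVTrans66 and PVTrans149, and transcripts at an upstream gene end were not left out. Of 336 that ended inside such a gene or within 100 bp before its start, 26 (7.74%) were members. Without those at an upstream gene end it was 16 of 283 (5.65%). The 47 were not split in this way.

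**Figure D3:**
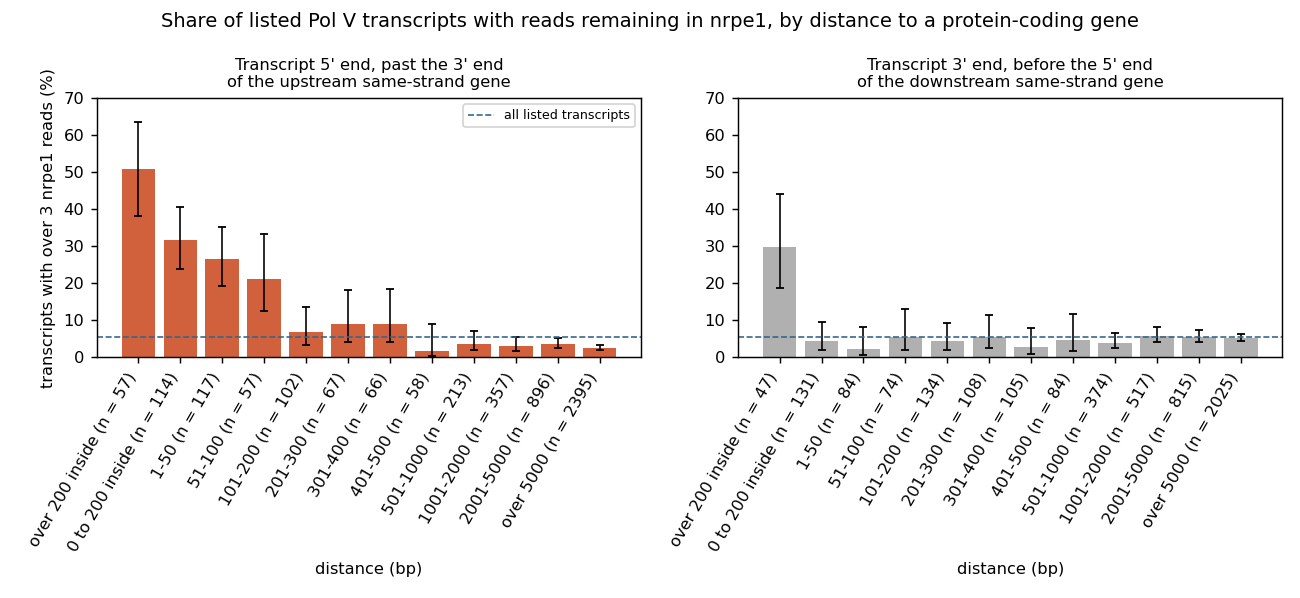
Share of listed transcripts with more than 3 nrpe1 reads (y axis, percent) by distance in bp from the 3′ end of the upstream same-strand gene to the transcript's 5′ end (left) and from the transcript's 3′ end to the downstream same-strand gene (right). Error bars are Wilson 95% intervals and the dashed line is the 5.42% of the whole list. On the left the share goes from 50.9% deep inside the gene to 2.67% beyond 5 kb, while on the right it is above 10% only where the transcript ends over 200 bp inside the gene. That bin includes transcripts that lie wholly inside a gene.

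Length and signal moved with membership too. Members had a median length of 1145 bp and the others 676 bp. The list was split into 3 equal classes by length and, separately, by Col-0 reads. Among the shortest transcripts, 15 of 91 transcripts at a gene end (16.5%) were members and 16 of 1412 elsewhere (1.13%). Among the longest it was 73 of 146 and 86 of 1351 (6.37%). In the class with most Col-0 reads it was 76 of 153 (49.7%) and 99 of 1344 (7.37%), and in that with fewest it was 3 of 81 (3.70%) and 4 of 1470 (0.272%). The share at gene ends was thus higher in each of these classes.

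The gene-end share differed among members. It was 55.4% in the 65 that passed in both repeats, 49.6% in the 115 of repeat 1 only and 23.4% in the 64 of repeat 2 only. Of the members that began inside a gene, 61 ran past the gene's end, by a median of 1001 bp, and 4 lay wholly inside. The 61 covered a median of 166 bp of the gene before its end. The 93 other transcripts of this kind covered a median of 60 bp and ran a median of 605 bp past it. Gene ends in TAIR10.1 can differ from those of TAIR10, by which the study left out genic reads when it called transcripts. The ends of TAIR10 were not used here.

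PVTrans28, on the plus strand of chromosome 1 from 2049454 to 2052281, begins 15 bp past PSBP-1, which encodes an extrinsic subunit of photosystem II. It had 205 and 101 reads in wild-type, with 45 and 20 left in nrpe1, a ratio of 4.71. PVTrans234, on the plus strand of chromosome 1 from 10723256 to 10725564, begins 9 bp past PSAK, a photosystem I subunit gene, and had 265 and 256 reads in wild-type, with 28 and 34 left in nrpe1. Here the mutant repeats were within a few reads of each other.

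PVTrans876 begins inside FED A, the gene of a leaf ferredoxin that carries electrons from photosystem I. It had 176 and 125 reads in wild-type, with 36 and 13 left in nrpe1. PVTrans3051 begins inside PSBQ-2, another extrinsic subunit of photosystem II, and had 117 and 148 reads in wild-type, with 22 and 13 left in nrpe1. PVTrans2711 begins inside LHCA4, a light-harvesting protein of photosystem I, and had 122 and 87 reads in wild-type, with 0 and 6 left in nrpe1, so only repeat 2 placed it among the members. All but PVTrans28 of these were named after their values were seen. In a search of annotated products for photosystem, photosynthesis, light-harvesting, chlorophyll, chloroplast or plastid, words also chosen afterwards, 7 of the 108 genes at members (6.48%) matched, FED A not among them, against 2 of 235 genes at other transcripts only (0.851%) and 0.725% of all 27444 protein-coding genes. The 7 include PKp3, a plastidial pyruvate kinase gene, and AT5G19940, a plastid-lipid associated protein gene, which are matched by plastid alone. How strongly these genes were expressed in the plants was not measured in the files used.

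The other genes at members were of many kinds. PVTrans1576, on the minus strand of chromosome 2, begins 37 bp past OTP51, spans 7439 bp, and had 496 and 187 reads in wild-type, with 15 and 23 left in nrpe1. PVTrans530 begins 78 bp past FBP, and had 81 and 79 reads in wild-type, with 20 and 9 left in nrpe1. PVTrans2980 begins 11 bp past MEE51, and had 135 and 171 reads in wild-type, with 21 and 0 left in nrpe1. PVTrans911, on the minus strand of chromosome 1 from 23262122 to 23263550, begins inside AT1G62820, a calcium-binding EF-hand protein gene, and had 81 and 40 reads in wild-type, with 20 and 4 left in nrpe1. The printed starts of the first 3 are shown above.

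Away from gene ends, 136 members remained. Of these, 12 overlapped a same-strand protein-coding gene in another way, 35 overlapped one on the opposite strand, 32 a pseudogene, and 12 a gene for long non-coding RNA, in that order of precedence, and 45 overlapped no gene of these kinds. Members made up 32 of 638 transcripts in the pseudogene class (5.02%), near the 5.42% of the list, and 45 of 2478 in the class without a gene (1.82%). The pseudogene members were long, with a median of 1971 bp against 915 bp for the other transcripts of the class. Pseudogene in TAIR10.1 includes degenerate transposon genes, for which the pathway is best known. Counted without precedence, 56 members (23.0%) and 694 others (16.3%) overlapped a pseudogene. Within the length classes it was 0 of 31 members and 6.52% of others among the shortest, 5.56% and 13.9% in the middle class, and 33.3% and 29.7% among the longest, so the order held only among the longest.

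A group on chromosome 2 held 3 of the 5 members with most nrpe1 reads and was picked after its values were seen. PVTrans1525, on the plus strand from 6507000 to 6510161, lies over AT2G15040, a pseudogene, and over AT2G06355, a long non-coding RNA gene. It had 2681 and 764 reads in wild-type, with 229 and 34 left in nrpe1, a ratio of 13.1. PVTrans1531, on the plus strand from 6523425 to 6527872, overlaps AT2G15060 and had 550 and 199 reads in wild-type, with 116 and 23 left in nrpe1. PVTrans1534, from 6528113 to 6533684 on the same strand, had 532 and 195 reads in wild-type, with 84 and 13 left in nrpe1. In all 3, repeat 1 had more reads than repeat 2 in both genotypes. In PVTrans1531 the nrpe1 count of repeat 1 was below the lower Col-0 count, so the groups did not overlap, which the 4-fold filter favoured.

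On the minus strand of the same group the counts were unlike. PVTrans1524, which overlaps PVTrans1525, had 630 and 233 reads in wild-type, with 8 and 1 left in nrpe1. PVTrans1535, which overlaps PVTrans1534, had 163 and 51 reads in wild-type and none in the mutant. PVTrans1532 and PVTrans1533, which overlap PVTrans1531, had 0 and 0, and 0 and 4 reads in nrpe1. Other plus-strand transcripts of the group held few as well. PVTrans1536, a member that begins 22 bp past RLP19, had 66 and 13 reads in wild-type, with 6 and 0 left in nrpe1. PVTrans1526 had 0 and 0 reads in nrpe1, PVTrans1527 had 0 and 1, and PVTrans1529 had 114 and 57 reads in wild-type, with 0 and 1 left in nrpe1. The group was picked for its plus-strand counts, so nothing is read from the strands.

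**Figure D4:**
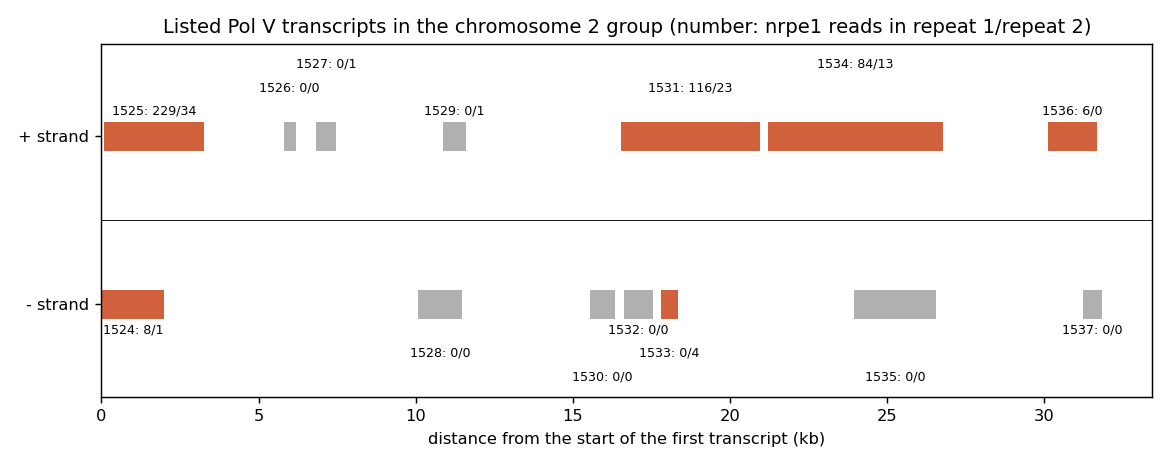
Listed Pol V transcripts of the chromosome 2 group, to scale in kb from the start of the first, plus strand above and minus strand below, with members in orange and others in grey. Labels give the transcript number and its nrpe1 reads in repeats 1 and 2, and the 3 longest plus-strand blocks hold 229, 116 and 84 reads in repeat 1.

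Over the whole list, a transcript on the opposite strand overlapped 115 members (47.1%) and 2202 others (51.7%). In 99 of the 115 members no such partner was itself a member. Of the 124 distinct partners, 16 (12.9%) were members, against 5.42% of the list, and 81 (65.3%) had no nrpe1 read in either repeat. Over the list of 4502, 4238 had no nrpe1 read in repeat 1, and 531 of these (12.5%) had a read in repeat 2. The partners were thus less often without a read than the list. The partners had a median of 113 Col-0 reads over both repeats, against 169 in the members they overlapped and 74.5 over the list. Their median length was 931 bp, against 689 bp over the list. Membership rose with both, and partners were not compared with the list within classes of reads or length. The 16 partners that are members are counted among the partners. The median nrpe1 count of the partners was 0, as over the list, and that of the members was 9. The rule chose the members by these counts, so nothing is read from that difference. Of the partners 8.06% began at a same-strand gene end, and of the members with a partner 32.2% did.

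Repeated sequence marked few members. Each transcript was cut into overlapping words of 50 bases, the length of a read, and each word was looked up in the whole genome on both strands. The median transcript had all of its words once in the genome, in members and others alike. More than 90% of the words were found once in 204 members (83.6%) and in 3799 others (89.2%). Under 10% were found once in 7 members (2.87%) and 52 others (1.22%). PVTrans161, on the plus strand of chromosome 1 from 8771377 to 8773743, had no word found once, and a typical word had 4 copies. It begins inside AT1G24800, an F-box protein gene, and had 526 and 425 reads in wild-type, with 52 and 18 left in nrpe1. A read within it matches other copies as well, and reads with several matches were placed once. PVTrans4486 was the 1 member that shared words with the mitochondrial genome, and 0 members shared any with the plastid genome. PVTrans1414 and PVTrans4277 held words with 42 and 294 copies, yet 97.7% and 99.0% of their words were found once.

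PVTrans2392, on the minus strand of chromosome 3 from 11663894 to 11664698, had the most nrpe1 reads of the members that overlapped no gene of the kinds above. It had 166 and 69 reads in wild-type, with 35 and 14 left in nrpe1, and 33.1% of its words were found once. Words with another copy, at most 4 in all, covered 767 of its 804 bases. A stretch is printed to show this, with capitals for bases inside a word found elsewhere.
PVTrans2392, minus strand, chr3:11664523-11664642: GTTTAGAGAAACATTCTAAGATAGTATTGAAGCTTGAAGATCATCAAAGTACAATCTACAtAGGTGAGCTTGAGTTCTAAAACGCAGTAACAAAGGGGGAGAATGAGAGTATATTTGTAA
The single lower-case base lies in no repeated word, between longer runs that do.

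The members lay on every chromosome. They made up 54 of 1076 transcripts on chromosome 1, 63 of 937 on chromosome 2, 43 of 868 on chromosome 3, 35 of 658 on chromosome 4 and 49 of 963 on chromosome 5. Within chromosomes they were less even. The 500 kb window with most members, 1.5 to 2 Mb on chromosome 2, held 11 among 57 transcripts. That from 8.5 to 9 Mb on chromosome 1 held 6 among 24. Pericentromeric windows of 500 kb, those around the centromere with at least as many pseudogenes as protein-coding genes, held 29 members (11.9%) and 641 others (15.1%). This order turned where more than 10 reads, or both repeats, were asked of a member. At gene ends, members were 98 of 306 transcripts on the arms and 10 of 39 in pericentromeric windows. Elsewhere they were 117 of 3526 (3.32%) and 19 of 631 (3.01%), so position along the chromosome went with smaller differences than position at a gene.

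The AGO4 RIP is a separate experiment with its own mutant, which the rule did not use. An AGO4-bound transcript on the same strand overlapped 121 members (49.6%) and 1485 others (34.9%). Within the class with most Col-0 reads it was 57.1% of members and 60.2% of others, in the middle class 18 of 62 members and 28.4% of others, and in the class with fewest 3 of 7 members and 293 of 1544 others, so the members were not higher in the class that held most of them. Over the AGO4-bound transcripts overlapping each, ago4 had more than 3 reads for 18 of the 121 members (14.9%, Wilson 95% interval 9.62% to 22.3%) and 23 of the 1485 others (1.55%, 1.03% to 2.31%), with 2.55% for all 1606. Of all 3940 AGO4-bound transcripts, 390 (9.90%) had more than 3 ago4 reads. No ago4 read was found for 75 members (62.0%) and 1341 others (90.3%). The median reads in Col-0 were 24 and 15. With deduplicated reads the counts above 3 were 11 members (9.09%) and 6 others (0.404%). There was 1 library per genotype, so these values have no replicate check. AGO4-bound transcripts were themselves listed for more than 6-fold more reads in Col-0 than in ago4. Those with few AGO4 RIP reads in Col-0 could therefore hardly pass 3 ago4 reads, and the others had fewer such reads than the members. The shares were not split by AGO4 RIP reads in Col-0.

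Position and length moved with this share as well. At gene ends, 8 of 52 members (15.4%) and 5 of 96 others (5.21%) had more than 3 ago4 reads. Elsewhere it was 10 of 69 (14.5%) and 18 of 1389 (1.30%). Among the longest transcripts it was 17 of 82 members (20.7%) and 9 of 494 others (1.82%), in the middle class 0 of 23 and 11 of 485, and among the shortest 1 of 16 and 3 of 506. The difference was thus seen among the longest, and the few members of the other classes held 1 such transcript between them. The part of length in the result was not tested.

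Among the members named, PVTrans161 had 171 AGO4 RIP reads in Col-0 and 25 in ago4. PVTrans2351 had 326 and 24, and PVTrans2554 had 215 and 23. PVTrans1525 had 788 and 5, and PVTrans167 had 141 and 0. Members with many nrpe1 reads therefore varied widely in the ago4 reads of the transcripts that overlap them.

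**Figure D5:**
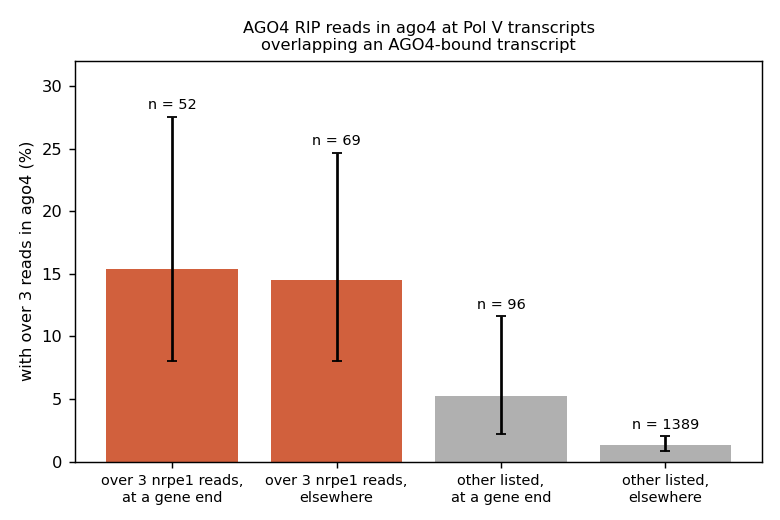
Share of Pol V transcripts with more than 3 AGO4 RIP reads in ago4 (y axis, percent), among those that overlap an AGO4-bound transcript on their strand, with Wilson 95% intervals. Members are in orange and others in grey, each split by whether the transcript begins inside or within 100 bp past a same-strand gene, and the bars stand at 15.4%, 14.5%, 5.21% and 1.30%.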

How the data were processed

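The authors mapped paired 50 bp reads to TAIR10 with SOAPsplice, placing reads with several matches once, and called Pol V transcripts from pooled reads outside annotated genes. They kept those above limits of read number, density, a Col-0 to nrpe1 fold in each repeat and a test in NBPSeq, whose p-value and q-value columns were not used. The deposited values used here are the authors' raw read counts per transcript and library, without normalization. AGO4-bound transcripts were called by the authors on reads and fold alone, and their deposited list also counts deduplicated reads. Every per-library column was read, leaving 0 aside.

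The members and all classes and lists were chosen with earlier results of these data known. No test was run: shares have Wilson 95% intervals, which describe counting error over transcripts alone. Transcripts share their libraries and often overlap one another on opposite strands, so they are not independent. Reads without molecular identifiers are not independent molecules either. For ratios, nrpe1 was taken as at least 3 reads in a single repeat and at least 6 over both, and a ratio against such a floor is a lower bound. Coordinates are as deposited, and genes and sequence are those of TAIR10.1 (RefSeq), whose nuclear chromosomes serve TAIR10 coordinates. Overlaps were of at least 1 bp. Counts of words and overlaps were tested on simulated data. Members were named for the most nrpe1 reads (10), the most per kilobase (5), the lowest ratio above the limit in both repeats (5), extreme length, organelle words or copy number. Python 3.11.15, numpy 2.4.6, pandas 2.3.3, scipy 1.17.1 and matplotlib 3.10.9 were used. The alternatives changed the read limit, repeats, windows, overlap, word length, pseudocount and distance.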

Additional observations from a re-analysis of the deposited data

How the results depend on the processing

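With other read limits, the number of members was 412 above 1 read and 81 above 10 reads, 65 when both repeats had to pass, and 129 to 180 with one repeat left out. The share at a same-strand gene end, an alternative set added after the data were seen, was 35.4% above 1 read, 50.9% above 5, 51.9% above 10, 55.4% in both repeats and 39.5% to 51.7% with one repeat left out. It was 26.6% inside the gene only, 52.5% within 500 bp and 50.4% with every annotated gene, against 2.49%, 11.98% and 11.0% of the others. The transcripts outside each read limit or repeat choice stood between 4.87% and 6.96%. The share with more than 3 ago4 reads, also added, was 9.31% above 1 read, 26.2% of 42 above 10 and 36.4% of 33 in both repeats. For the transcripts outside these limits it was 1.57%, 1.92% and 1.84%. For members it was 17.0% to 22.7% with one repeat left out and 9.09% on deduplicated reads. The pseudogene share was 41.98% above 10 reads and 35.4% in both repeats, against 16.2% and 16.4% of the transcripts outside. For members it was 22.8% to 29.5% with one repeat left out and 13.9% for an overlap of 50%. That overlap gave 31.6% for an opposite-strand partner and 32.8% for an AGO4-bound transcript. The pericentromeric share was 19.8% above 10 reads, above the 14.8% of the transcripts outside that limit. In both repeats it was 15.4% against 14.9%, nearly equal. It was 18.0% with 200 kb windows, against 19.2% of the others. The median length was 999.5 bp above 1 read, 1345 bp above 5, 1720 bp above 10 and 1458 bp in both repeats. The median share of words found once was 99.96% above 10 reads and 96.5% with 25-base words. The median ratio was 10.2 to 12.3 with one repeat left out and 10.9 with 1 read added. The cause of these shifts was not tested. The 4-fold filter kept transcripts with few Col-0 reads from becoming members. No paired analysis was made, since no test of Col-0 against nrpe1 was run, and values are given by repeat.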
